A study of Mus musculus with 10 samples.

Results

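The 10 genes of mitochondrial fatty acid oxidation were followed in RNA-seq of mouse germinal center (GC) B cells that had, or lacked, the transcription factor ZBTB38. The members were matched by gene symbol: Cpt1a, Slc25a20, Cpt2, Acadvl, Acadl, Acadm, Acads, Hadha, Hadhb and Etfdh, 10 of the 22380 genes in the transcript files. Each symbol belonged to 1 gene, and all 10 passed the filter on low counts in every comparison. The 10 libraries came from 2 ZBTB38 WT mice (Zbtb38fl/fl without Cre), 2 HET mice (Zbtb38fl/+ x Vav-Cre) and 6 KO mice (Zbtb38fl/fl x Vav-Cre), each library from a separate mouse. WT and KO thus shared the floxed alleles, and HET and KO shared Vav-Cre, which acts mainly in blood cells as a whole and not in GC B cells alone. The floxed line descended from 1 founder made in C57Bl6/J zygotes and bred to C57Bl6/N, the strain given for every library. All mice had been immunized with the hapten-protein conjugate NP-OVA in alum, and NP-binding GC B cells were sorted 2 weeks later. The ages and sexes of the mice were not given in the sources used here.

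Fatty acids are burned in mitochondria after activation to acyl-CoA. The carnitine shuttle carries the acyl group across the inner membrane: CPT1A, on the outer membrane, makes acylcarnitine and is the step at which entry is controlled, SLC25A20 exchanges acylcarnitine for carnitine, and CPT2 restores the acyl-CoA inside. The acyl-CoA dehydrogenases, each for its own range of chain lengths, then begin every round of beta-oxidation, the trifunctional protein of HADHA and HADHB carries out the remaining steps for long chains, and ETFDH passes the electrons on to the respiratory chain. GC B cells divide fast and are known to draw on this route for energy. ZBTB38 belongs to the BTB zinc finger family and can bind methylated CpG sites.

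Totals were between 26612431 and 41059082 estimated counts per library. Levels between libraries are given as CPM, counts scaled to a fixed library total, after TMM normalization, and levels between genes as TPM, which also allow for transcript length. Zbtb38, the targeted gene, stood at 152 to 162 CPM in WT, 106 to 117 CPM in HET and 18.6 to 50.3 CPM in KO libraries, in the order of the labels. The 11 GC B cell markers summed to 8934 to 12783 CPM in every library. The 11 myeloid markers summed to 491 to 624 CPM in WT, 94.5 to 107 CPM in HET and 84.8 to 805 CPM in KO, and the 10 T cell markers to 200 and 224 CPM in WT, 77.29 and 94.96 CPM in HET and 121 to 238 CPM in KO. The 7 naive B cell markers summed to 1317 and 1388 CPM in WT, 899 and 990 CPM in HET and 923 to 1650 CPM in KO, and the 6 plasma cell markers to 1164 to 1746 CPM over all libraries. The 6 erythroid markers summed to 35.5 to 57.1 CPM in controls and 56.1 to 96.5 CPM in KO, with only KO replicate 2 below the highest control. By median correlation of all genes, KO replicate 6 was the least like the rest (0.954, against 0.971 to 0.983 for each of the other 9). The Y-linked genes Ddx3y, Kdm5d, Eif2s3y and Uty summed to 208 to 279 CPM in both WT libraries and KO replicates 1, 2 and 5, and to 1.99 to 6.94 CPM in both HET libraries and KO replicates 3, 4 and 6. A difference between WT and HET can therefore not be told apart from a difference in sex chromosomes.

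In the Gencode annotation of GRCm38, Hadha and Hadhb lie head to head on chromosome 5. Hadha (minus strand) runs from 30118304 to 30155162 and Hadhb on the plus strand from 30155248 to 30184593, so that both start at the edges of a stretch of 85 bases. That stretch is shown because the partners of the trifunctional protein share it and their RNA ratio is followed below. Cpt1a, on the plus strand of chromosome 19 from 3322334 to 3385733, and Acadl, on chromosome 1 (minus strand) from 66830839 to 66863277, are shown as the entry step and as the more abundant of the dehydrogenases. The 150 bases upstream of the start of the quantified Cpt1a transcript (chr19:3323135-3323284) fall in an intron of another annotated Cpt1a transcript, Cpt1a-206. The sequences are RefSeq promoter sequence of GRCm38.p6, read on the strand of Hadhb (chr5:30155163-30155247), Cpt1a and Acadl (chr1:66863310-66863459), with CpG sites in capitals.
Hadha to Hadhb: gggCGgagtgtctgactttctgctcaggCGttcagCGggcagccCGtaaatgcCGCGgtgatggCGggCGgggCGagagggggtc
Cpt1a: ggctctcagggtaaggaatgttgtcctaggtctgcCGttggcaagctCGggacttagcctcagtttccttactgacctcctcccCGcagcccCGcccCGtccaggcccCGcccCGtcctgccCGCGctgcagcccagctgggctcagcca
Acadl: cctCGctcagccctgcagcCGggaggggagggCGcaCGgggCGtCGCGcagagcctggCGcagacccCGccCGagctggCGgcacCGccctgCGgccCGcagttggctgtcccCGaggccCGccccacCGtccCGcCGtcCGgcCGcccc

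These stretches held 9 CpG sites between Hadha and Hadhb, 9 upstream of Cpt1a and 21 upstream of Acadl. In the whole RefSeq promoter windows, from 250 bases before to 50 after the start, the 10 members held 9 (Acadvl) to 34 (Acadl) CpG sites, with a median of 17, and the median of all 32851 windows was 7. All 10 members were above that median. The nuclear receptor half-site AGGTCA, searched on both strands, was found in the windows of Cpt1a, Acadm and Acadvl, and in 16.3% of all windows. The longer ERR element TNAAGGTCA, which contains the half-site, was in 1.28% of all windows and in 0 of the members'. The direct repeat AGGTCANAGGTCA, the letters bound by PPAR with RXR, was in 0.0396% of all windows and in 0 of the members'. These matches describe letters only.

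All 10 members were expressed in every library, over a 7.49-fold range of mean TPM. Hadhb was the highest at 148 ± 10.7 TPM (SD, n = 10), above 91.3% of the genes tested. Acadl followed at 99.6 ± 5.09 TPM, and Cpt1a came next at 44.8 ± 14.6 TPM. Hadhb was above Acadl and Acadl above Cpt1a in 10 of 10 libraries, with no overlap of their ranges. Below these, each member overlapped its neighbour: Hadha at 42.9 ± 7.90 TPM, Acadvl at 39.7 ± 4.05, Acadm at 29.1 ± 4.28, Etfdh at 28.4 ± 4.03, Slc25a20 at 27.6 ± 7.01, Acads at 20.7 ± 3.88 and Cpt2 at 19.8 ± 3.13. Cpt2, the lowest, was above 59.5% of the genes tested. Within the carnitine shuttle the mean of Cpt1a was above those of Slc25a20 and Cpt2, but in KO replicate 1 Slc25a20 (35.4 TPM) was above Cpt1a (25.4 TPM), and in KO replicate 2 they were nearly level. Within the trifunctional protein Hadhb was above Hadha in all 10 libraries. The other 2 CPT1 genes were near 0: Cpt1b, the muscle form, had a mean of 0.211 TPM and Cpt1c, the brain form, 0.0808 TPM.

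**Figure D1:**
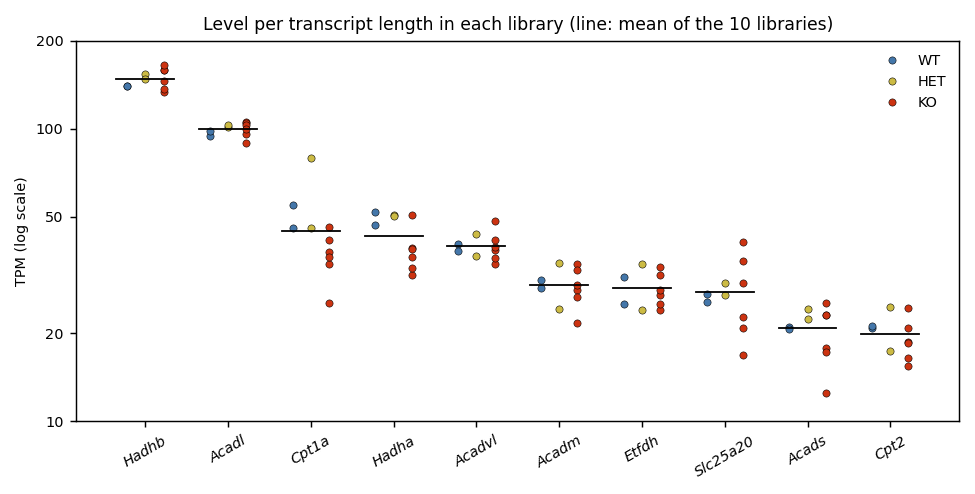
Level of each member in each library in TPM on a log scale, ordered by the mean of the 10 libraries (black line), with WT in blue, HET in yellow and KO in red. Hadhb and Acadl stand above the rest, and the 3 genotypes overlap for most members.

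Summed over the 10 members, the level was 501 ± 6.06 TPM in WT (SD, n = 2), 537 ± 29.5 TPM in HET (n = 2) and 489 ± 28.3 TPM in KO (n = 6). The lowest, median and highest KO libraries were at 442, 488 and 518 TPM. The WT libraries, at 497 and 505 TPM, lay inside the KO range, and of the HET libraries, at 517 and 558 TPM, 1 did. In bulk samples, fewer cells that use a gene and less RNA per cell cannot be told apart.

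The 4 comparisons were fitted with edgeR across all genes: WT against KO, WT plus HET (called controls) against KO, HET against KO and WT against HET, with a call at a Benjamini-Hochberg adjusted p under 0.1. They share libraries, so their values are not independent of each other. None of the 10 members was called in any of the 4 by edgeR. Over all genes tested, edgeR called 1 in each comparison: 0.00704% of 14203 genes in WT against KO, 0.00749% of 13347 in controls against KO, and 0.00697% of 14354 in both HET against KO and WT against HET. That gene was Zbtb38 in the first 2. Zbtb38 was not called in HET against KO, at a log2 difference of 1.82 (edgeR adjusted p = 0.128). A count of 0 members called therefore does not show that the members were unchanged. At an unadjusted p under 0.05, 1 member passed in each comparison with KO, Cpt1a in every case, and 0 passed in WT against HET. The share of all genes under that p was 2.19% in WT against KO, 6.3% in controls against KO, 10.2% in HET against KO and 6.42% in WT against HET, so that 1 member of 10 was near the background in HET against KO. DESeq2 called 0, 0, 1 and 0 members in the 4 comparisons, the 1 being Cpt1a in HET against KO, and limma on log2(TPM + 1) called 0 in each. Over all genes DESeq2 called 6, 18, 458 and 125. The median log2 fold change of controls over KO was -0.09 over the members and -0.02 over all genes tested, with 3 members higher and 7 lower.

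**Figure D2:**
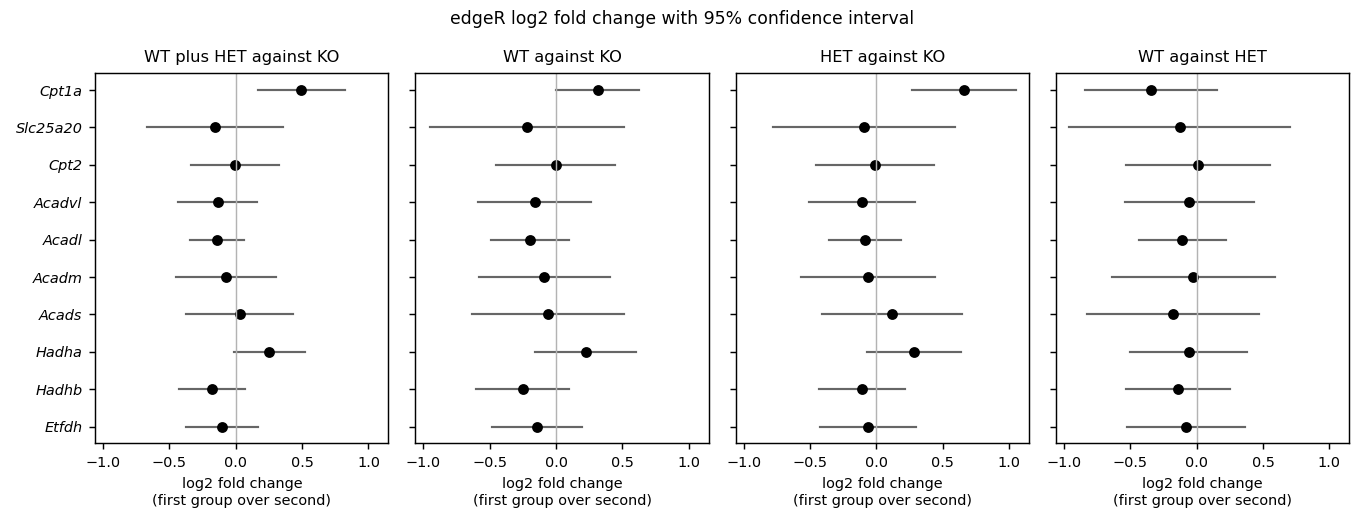
edgeR log2 fold change (dot) with its 95% confidence interval (line) for each member in the 4 comparisons, the first-named group over the second. The interval of Cpt1a lies above 0 in the 3 comparisons with KO, and the intervals of the other 9 members include 0 throughout.

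Cpt1a, the entry step, was the member with the smallest p in each comparison with KO. It stood at 136 and 160 CPM in the WT libraries and at 139 and 236 CPM in the HET libraries. The KO libraries held 98.5, 120, 115, 131, 121 and 128 CPM in replicate order. Every control library was therefore above every KO library. Controls exceeded KO by 0.50 on the log2 scale (SE 0.152, 95% confidence interval 0.16 to 0.83), a fold of 1.41. By its edgeR p, Cpt1a ranked 83 among the 13347 genes, and the adjusted p was 0.744. Controls lay wholly above KO for 0.944% of the genes tested and wholly below for 0.532%.

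Both control genotypes had higher values than KO. WT exceeded KO by 0.31 (SE 0.142, 95% confidence interval 0.00 to 0.63, edgeR adjusted p = 0.999), with no overlap between the groups, which 3.91% of all genes tested shared in that direction. HET exceeded KO by 0.66 (SE 0.179, 95% confidence interval 0.27 to 1.05, edgeR adjusted p = 0.322), again with no overlap, as in 8.12% of all genes tested. The HET value rested on 1 library: without HET replicate 2, which held 236 CPM, the difference from KO was 0.23 (edgeR adjusted p = 0.884), and that of controls was 0.29. Without WT replicate 2, WT exceeded KO by 0.19. WT and HET differed by -0.35 (SE 0.227, edgeR adjusted p = 0.854), which became 0.08 without HET replicate 2. Among libraries with Y-linked counts, Cpt1a was at 136 and 160 CPM in WT and between 98.5 and 121 CPM in the 3 KO libraries. Among those near 0 it was at 139 and 236 CPM in HET and between 115 and 131 CPM in the other 3. Since no control overlapped KO, this split could not have shown an overlap and adds no support. The controls on each side of it are of 1 genotype, WT or HET. Myeloid marker sums in controls (94.5 to 624 CPM) lay within the KO range (84.8 to 805 CPM). Erythroid marker sums moved with the difference, at 44.8, 57.1, 38.8 and 35.5 CPM in controls and 94.0, 56.1, 91.0, 72.4, 59.8 and 96.5 CPM in KO, and their part in it was not tested. On the TPM scale the groups of Cpt1a overlapped: WT replicate 1 (45.6 TPM) and HET replicate 1 (45.9 TPM) were below KO replicate 4 (46.1 TPM).

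For the other shuttle members controls and KO overlapped. Slc25a20, the carrier, was at 30.9 and 28.4 CPM in WT, 34.1 and 30.6 CPM in HET and 52.4, 45.0, 28.6, 22.4, 35.9 and 22.7 CPM in KO. Its KO libraries spread on both sides of all 4 controls, with a coefficient of variation of 35.5% against 7.66% in controls, and the control difference was -0.16 (95% confidence interval -0.67 to 0.36). The KO values split by Y-linked counts. Among libraries with such counts Slc25a20 was at 28.4 and 30.9 CPM in WT and between 35.9 and 52.4 CPM in KO, and among those near 0 at 30.6 and 34.1 CPM in HET and between 22.4 and 28.6 CPM in KO, the opposite order. Controls with and without Y-linked counts overlapped. The share of all genes whose KO libraries split in this way was not computed, and the part of sex chromosomes in it was not tested. Slc25a20 lies 11.9 Mb from Zbtb38 on chromosome 9, from 108662088 to 108684641. Cpt2, the inner membrane transferase, was at 32.1 and 32.4 CPM in WT, 27.6 and 36.6 CPM in HET, and at a lowest, median and highest of 24.8, 32.1 and 40.8 CPM in KO. Its control difference was -0.01 (95% confidence interval -0.34 to 0.32), which as a fold of controls over KO is 0.791 to 1.25.

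**Figure D3:**
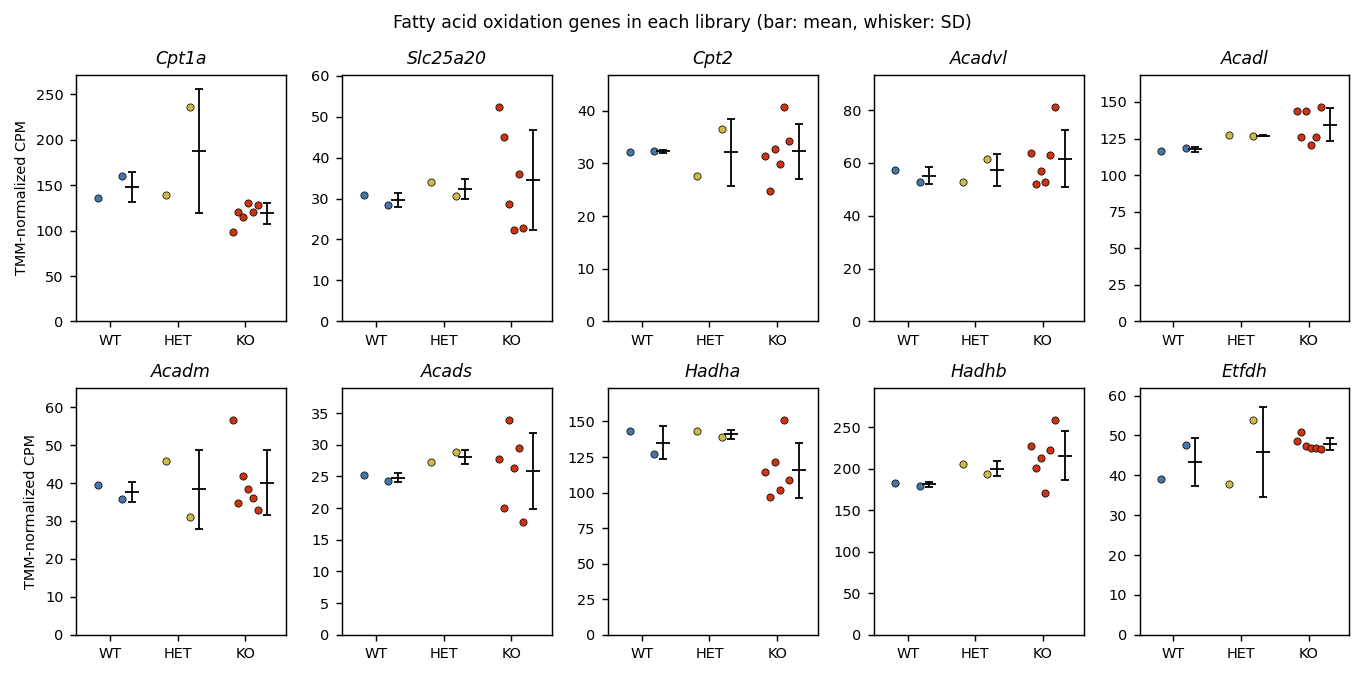
TMM-normalized CPM of each member in each library (dots), with the mean (bar) and SD (whisker) of the 2 WT, 2 HET and 6 KO libraries. For Cpt1a all control dots lie above all KO dots, and for the other 9 members controls and KO overlap.

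Among the acyl-CoA dehydrogenases, controls and KO overlapped for all 4 genes. Acadvl, which acts on very long chains, was at 57.3 and 52.8 CPM in WT, 52.9 and 61.5 CPM in HET and between 52.1 and 81.3 CPM in KO, the highest being KO replicate 6. Acadl, for long chains, was at 117 and 119 CPM in WT, 127 and 127 CPM in HET and 144, 126, 144, 120, 126 and 147 CPM in KO. By CPM both WT libraries were below all KO and both HET libraries, and HET lay inside the KO range. By TPM the WT libraries, at 94.2 and 98.5, lay inside the KO range of 89.7 to 105.8. WT lay wholly below KO for 2.68% of all genes tested, and Acadl differed by -0.19 between WT and KO (SE 0.133, edgeR adjusted p = 0.999). Acadm, for medium chains, ranged from 31.0 CPM in HET replicate 2 to 56.6 CPM in KO replicate 1. Acads, for short chains, ranged from 17.8 CPM in KO replicate 6 to 33.9 CPM in KO replicate 3, so that both extremes were KO libraries. The control differences were -0.14 for Acadvl, -0.14 for Acadl, -0.08 for Acadm and 0.03 for Acads, each with an interval that included 0.

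Hadha and Hadhb, the subunits of the trifunctional protein, had fitted differences of opposite sign. Hadha was at 143 and 127 CPM in WT, 143 and 139 CPM in HET and 114, 97.2, 121, 102, 151 and 109 CPM in KO. All 4 controls were above 5 of the 6 KO libraries, and KO replicate 5 was the highest of all 10. Controls exceeded KO by 0.25 (SE 0.123, 95% confidence interval -0.01 to 0.52, edgeR adjusted p = 0.744). Leaving out each library in turn gave 0.21 to 0.35, with 0.35 without KO replicate 5. Hadhb was at 183 and 179 CPM in WT, 206 and 193 CPM in HET and 228, 201, 213, 170, 222 and 259 CPM in KO. The control difference of Hadhb was -0.18 (SE 0.114, 95% confidence interval -0.43 to 0.07).

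The ratio of Hadha to Hadhb in TPM was 0.369 and 0.334 in WT, 0.329 and 0.339 in HET and 0.237, 0.228, 0.268, 0.281, 0.320 and 0.201 in KO. All 4 control libraries were above all 6 KO libraries. Among libraries with Y-linked counts the ratio was at least 0.334 in WT and at most 0.320 in KO. Among the others it was at least 0.329 in HET and at most 0.281 in KO. Since no control overlapped KO, this split could not have shown an overlap and adds no support. This pair was singled out after its values were seen. Among the 45 pairs of members, the ratio did not overlap between controls and KO in 3, the others being Cpt1a to Acadl and Cpt1a to Etfdh, with controls higher in each. Over all pairs of tested genes with TPM above 0 in every library, whatever their lengths, the share was 1.29%. In each of the 3 pairs the first gene had the longer main transcript, at 4017 against 2033, 4300 against 1916 and 4300 against 2377 bases. None of these ratios was adjusted for the length gradient of the libraries, given below. Its part in them was not tested. Taking only the more abundant transcript of each gene, the ratios overlapped, at 0.422 to 0.501 in controls and 0.331 to 0.446 in KO. Hadhb was the member with the most mixed transcripts, 72.7% of its mean TPM coming from ENSMUST00000026841.14 and 25.6% from ENSMUST00000114786.7. The share of the first was 73.6 to 79.2% in WT, 74.6 to 78.4% in HET and 58.4 to 78.3% in KO.

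**Figure D4:**
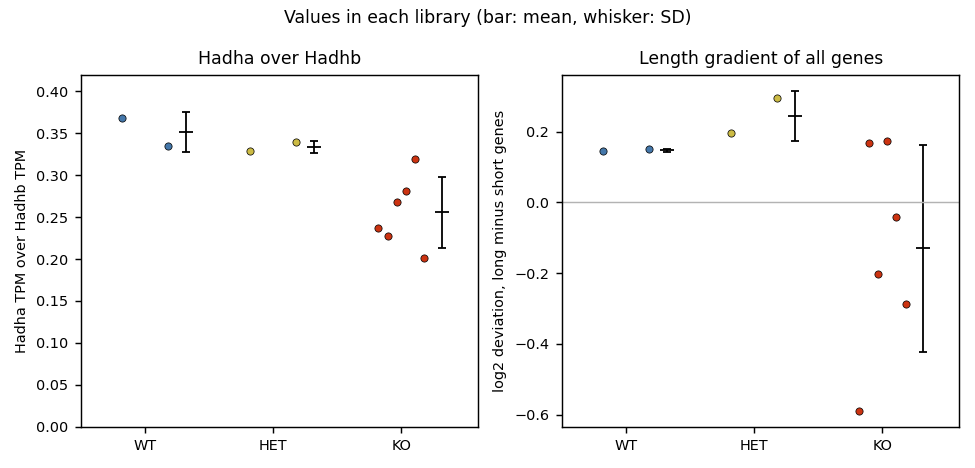
Left, the ratio of Hadha to Hadhb TPM in each library. Right, the length gradient of each library, the median log2 deviation of genes over 4000 bases minus that of genes up to 2000 bases. Dots are libraries, bars means and whiskers SD; all controls exceed all KO libraries on the left, and on the right KO replicates 2 and 4 lie within the control range.

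Etfdh, which hands electrons to the respiratory chain, varied least in KO by CPM, where it was at 48.7, 50.8, 47.4, 46.8, 46.8 and 46.7 CPM. Its coefficient of variation in KO was 3.38% by CPM but 13.4% by TPM, where that of Acadl was 6.15%. In WT it was at 39.04 and 47.67 CPM, below and inside the KO range, and in HET at 37.8 and 53.9 CPM, on both sides of it. Its control difference was -0.10 (95% confidence interval -0.38 to 0.17).

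Transcript length moved with these values. The main transcripts of Cpt1a and Hadha were 4300 and 4017 bases long, and those of the other 8 members between 1783 and 2377 bases. Over all genes tested, the median log2 difference of controls over KO was -0.22 for transcripts up to 1000 bases, -0.13 for longer ones up to 2000, 0.00 up to 3000, 0.09 up to 4000, 0.17 up to 6000 and 0.15 above 6000. Of the 2088 genes over 4000 and up to 6000 bases, 12.6% had a higher difference than Cpt1a and 38.0% a higher one than Hadha. The gradient per library, the median log2 deviation of genes over 4000 bases minus that of genes up to 2000, was 0.14 and 0.15 in WT and 0.20 and 0.30 in HET. In KO it was -0.59, 0.17, -0.20, 0.17, -0.04 and -0.29. The libraries with the lowest and the highest gradient, KO replicate 1 and HET replicate 2, were also the lowest and the highest in Cpt1a. KO replicates 1, 3, 5 and 4, in that order, rose in both, with Cpt1a at 98.5, 115, 121 and 131 CPM. KO replicate 6, with a gradient of -0.29, was at 128 CPM, below only KO replicate 4 among the KO libraries. KO replicate 2, with a gradient inside the control range, was at 120 CPM. The relation of Cpt1a to the gradient across libraries was not tested.

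With each library's length trend entered as an offset, a setting chosen after seeing the data, the control difference was 0.32 for Cpt1a (edgeR adjusted p = 0.994) and 0.09 for Hadha (edgeR adjusted p = 0.994). In the main fit of controls against KO, 6.3% of all genes tested had an unadjusted p under 0.05. With the offset that share is not given here, and Cpt1a was the only member under that p. In the same setting, Cpt1a differed from KO by 0.18 in WT (edgeR adjusted p = 1.00) and by 0.45 in HET (edgeR adjusted p = 0.553). Counts scaled by transcript length gave 0.51 for Cpt1a in controls against KO. The part of RNA quality or amplification in the gradient was not tested.

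**Figure D5:**
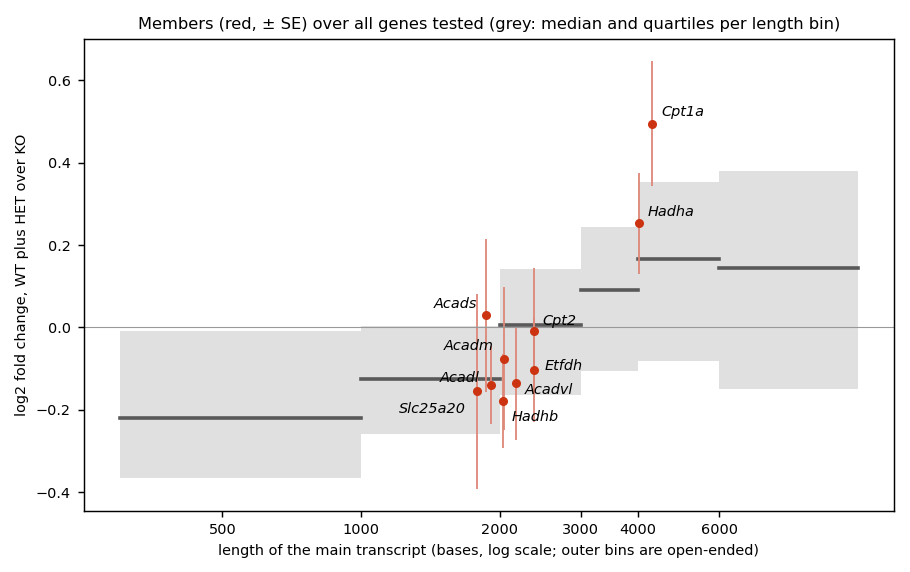
edgeR log2 fold change of WT plus HET over KO (red dots, whiskers SE) against the length of the main transcript on a log scale, over the median (dark line) and quartiles (grey) of all genes tested in each length bin. Cpt1a lies above the quartiles of its bin, Hadha inside them, and the grey medians go from -0.22 to 0.15 between the outer bins.

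Between HET and KO, and between WT and HET, the other members differed by little. In HET against KO the 9 members besides Cpt1a had log2 differences of -0.11 to 0.28, and Cpt1a was the only member without overlap. HET lay wholly below KO for 5.77% of the genes tested, and for 0 of the members. In WT against HET the differences of those 9 were between -0.18 and 0.01. Hadhb, Acadl and Acads were lower in both WT libraries than in both HET libraries, a pattern that 23.5% of all genes had, and 24.5% had the opposite one. The gene called in both of these comparisons was Hnrnpll, an RNA-binding protein gene, whose fitted mean was 0 CPM in HET.

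The members did not move as a block. Over the 10 libraries, the Pearson correlations of log2 CPM between the 45 pairs had a median of 0.117 and ran from -0.63 for Cpt1a with Acadm to 0.845 for Acadl with Hadhb, and 27 were above 0. The libraries share preparation and the length gradient, so these are descriptions. Acadvl with Hadhb (0.803) and Acadvl with Acadl (0.651) were the next highest. The 5 other genes most like the members' mean standardized log2 CPM, among 14344 genes over 10 libraries, were Serbp1 (Pearson r = 0.937), Pradc1 (0.932), Map2k3 (0.928), Pabpc1 (0.927) and Rplp0 (0.927). Picking the top 5 of so many genes over so few libraries favors high values, so these too are descriptions.

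Of 70 further genes of fatty acid metabolism, 63 were tested in controls against KO and none was called by edgeR. At an unadjusted p under 0.05, 2 were higher in controls and 1 lower. In WT against KO these counts were 1 and 1, in HET against KO 2 and 4, and in WT against HET 1 and 1. Of the 21 genes of activation and other mitochondrial oxidation, 19 were tested, with 8 higher, 11 lower and a median of -0.01. Acsl4, which activates polyunsaturated fatty acids, differed by 0.49 (SE 0.191, edgeR adjusted p = 0.744), from 34.6 to 62.8 CPM in controls and from 24.7 to 43.9 CPM in KO. Etfb, a subunit of the flavoprotein that supplies ETFDH, differed by -0.30 (SE 0.135), from 84.4 to 104 CPM in controls and from 90.8 to 152 CPM in KO. Their main transcripts were 4959 and 893 bases long.

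Among 13 tested genes of peroxisomal oxidation, where very long chains are shortened, 7 were higher and 6 lower, with a median of 0.08. Abcd3, a peroxisomal membrane transporter, differed by 0.25 (edgeR adjusted p = 0.744). Of 9 tested regulators, 6 were higher, Rxrb by 0.18 and Esrra, the nuclear receptor ERR alpha, by 0.32, with a median of 0.12. Ppara, the receptor that drives these genes in liver, did not pass the filter, with at most 0.0923 TPM. Of 11 tested genes of fatty acid synthesis, the opposite route, 9 were higher in controls, with a median of 0.13. Over all genes tested 47.2% were higher, and of those over 4000 and up to 6000 bases 68.2%, and of those over 6000 bases 63.2%. Several genes of this list are that long, among them Fasn (8333 bases), Acaca (9026 bases) and Acly (4162 bases). Acly, which makes cytosolic acetyl-CoA, differed by 0.37 (SE 0.163, edgeR adjusted p = 0.744) and Elovl1, an elongase, by -0.17.

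Among 11 tested genes of uptake and lipolysis, 5 were higher and 6 lower, with a median of -0.12. Cd36, a fatty acid transporter, was at 116 and 93.5 CPM in WT, 62.6 and 50.8 CPM in HET and 72.0, 67.7, 87.9, 159, 152 and 385 CPM in KO. Its control difference was -0.93 (SE 0.462, edgeR adjusted p = 0.744), and the highest library was KO replicate 6. Slc27a4, another transporter, differed by 0.67 (SE 0.418). The median of this list was 0.70 in WT against HET and -0.52 in HET against KO, against 0.01 and -0.07 over all genes. The summed myeloid markers were 491 and 624 CPM in WT against 94.5 and 107 CPM in HET, with Lyz2 at 298 and 345 CPM against 22.7 and 35.7 CPM, and the T cell and naive B cell sums above were also higher in WT than in HET. The part of these cells in these medians was not tested.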

How the data were processed

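SMART-Seq v4 libraries of sorted GC B cells were sequenced by the authors from both ends on a HiSeq instrument. Transcripts were quantified with Salmon 0.9.1, per the submitters' processing notes, against Gencode vM17. The deposited estimated counts per transcript carry no normalization and can be fractional, and the deposited TPM values have 1 common total per library. All 64019 transcripts name a coding sequence. Estimated counts and TPM were summed per gene, and the sums of estimated counts were rounded. WT against KO and WT plus HET against KO were fitted on their own libraries, and HET against KO and WT against HET on all 10 with a term per genotype, by edgeR 4.0.16's quasi-likelihood test with TMM, filterByExpr and Benjamini-Hochberg adjustment at 0.1. DESeq2 1.42.0 and limma 3.58.1 in R 4.3.3 were alternatives, as were other filters, scalings and libraries left out. The fits were tested on simulated data.

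The members, the lists of related genes and the marker lists were chosen with earlier results of these data known. Named beyond the members were Zbtb38, the 2 genes of each related list with the smallest unadjusted p in WT plus HET against KO, any list gene called, and the 5 genes most like the members. The result of 1 gene that this rule names is not reported here. Genes outside this rule (Hnrnpll, Cpt1b, Cpt1c, Ppara, Fasn, Acaca and Lyz2) were named after their values were seen. Of 22380 genes, 22349 were found in Gencode vM21 of GRCm38, which gave positions. Promoter windows of all 10 members were found in RefSeq (GRCm38.p6). Gene symbols came from the transcript names, and 14 symbols belonged to more than one gene, none of them a member. At the depth of these libraries the members held between 554 and 8603 estimated counts each. PCR duplicates were not distinguished. Libraries are separate mice, so p-values are set against the spread between libraries. With 1 library per mouse, that spread holds differences between mice, in sorting and in library preparation together. No 2 libraries of a group agreed within sampling noise.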

Additional observations from a re-analysis of the deposited data

Results flagged for a closer look

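The 10 members, the Hadha to Hadhb ratio, the length gradient and 6 marker lists were searched for a library that stood apart in the 4 controls or the 6 KO libraries, 36 groups in all. A gap to the nearest library was called large where it passed Dixon's 95% critical value, which chance alone passes in about 1 in 20 groups. No member passed. The 1 that did was the sum of the myeloid markers in KO replicate 4, at 805 CPM, with the next KO library at 302 CPM. Cpt1a in that library was 131 CPM, the highest of the 6 KO libraries, and its Cd36 was 159 CPM. Whether myeloid RNA contributes to these values was not tested.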

How the results depend on the processing

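The count of members called stayed at 0 in all 4 comparisons under every alternative run, except that DESeq2 called 1, Cpt1a, in HET against KO (adjusted p = 0.0430 over a log2 difference of 0.66). In WT against KO, 0 members had an unadjusted p under 0.05 without a filter, with limma at either pseudocount or without immunoglobulin genes. The same held with all 10 libraries in 1 fit and with length-adjusted offsets. The count was 1 in the other settings that kept every library. With the replicate number as a block (below), that member was not Cpt1a, whose unadjusted edgeR p was 0.089. The shares of all genes under that p in these settings are not given here. The control difference of Cpt1a kept its sign in all 23 alternatives, between 0.29 and 0.60, with adjusted p-values of 0.329 to 0.994. Those of Hadha (0.09 to 0.39), Hadhb (-0.24 to -0.04) and Acadl (-0.17 to -0.01) kept their signs too. With limma on TPM the median of all genes moved to 0.107 (pseudocount 1) and 0.157 (0.1) in WT against KO, and to 0.083 and 0.115 in controls against KO. In those 2 settings the control differences turned positive for Slc25a20 (0.042 and 0.045), Cpt2 (0.14 and 0.14), Acadvl (0.0034 and 0.0036), Acadm (0.037 and 0.039) and Etfdh (0.016 and 0.016), all below that shift except Cpt2, and in HET against KO for Hadhb (0.012 and 0.012) and Acadl (0.034 and 0.035). Cpt2 was 0.022 with length-scaled counts. Hadha in WT against HET was 0.0012 with length-adjusted offsets, a setting chosen after seeing the data. Leaving out each library in turn gave control differences of -0.25 to 0.0030 for Slc25a20, -0.073 to 0.073 for Cpt2, -0.18 to 0.048 for Acadm and -0.053 to 0.11 for Acads, and WT against HET differences of -0.68 to 0.083 for Cpt1a and -0.15 to 0.022 for Hadha.

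Genes called were 1 in each comparison. In WT against KO they were 6 with DESeq2, 3 with limma on log2(TPM + 0.1), 2 with all 10 libraries in 1 fit, 0 with limma on log2(TPM + 1), length-scaled counts, length-adjusted offsets or a threshold of 0.05, and 0 to 2 with a library left out. In controls against KO they were 18 with DESeq2, 0 with limma at either pseudocount or length-scaled counts, and 1 to 2 with a library left out. In HET against KO they were 458 with DESeq2, 6 with limma on log2(TPM + 0.1), 2 without a filter or with length-adjusted offsets, 0 with at least 10 counts in every library or only the 2 groups fitted, and 0 to 5 with a library left out. In WT against HET they were 125 with DESeq2, 5 with limma on log2(TPM + 0.1), 0 with at least 10 counts in every library, 523 with only the 2 groups fitted, and 0 to 16 with a library left out. The cause of these moves was not tested. Where 1 library of a group was left, it was assumed to vary like the other groups.

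The replicate numbers do not pair the samples: deviations of same-numbered libraries correlated at -0.008 to 0.127. With the replicate number as a block, genes called were 6, 0, 4 and 66 in the order WT against KO, controls against KO, HET against KO and WT against HET, and no member was called. Replicate numbers 3 to 6 exist only in KO, so under this block the differences from KO rest on KO replicates 1 and 2. Cpt2 was then 0.19 and Slc25a20 -0.65 (edgeR adjusted p = 0.601) in controls against KO. KO replicates 1 and 2 held the highest Slc25a20 of the KO libraries, at 52.4 and 45.0 CPM.

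The Hadha to Hadhb ratio, as log2 of the control mean over the KO mean, stayed between 0.31 and 0.50 in all 12 alternatives. All were chosen after seeing the data, and none adjusted for the length gradient. By CPM in place of TPM, 4 of 10 members kept their rank of level, and by the main transcript 7 of 10. With 2 WT and 2 HET libraries, differences of the size seen here for most members lay within the spread between libraries.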
